A study of Mus musculus with 8 samples.

Results

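Chromatin loops that end at 8 genes of the Wnt pathway were taken from FOXA1 and HNF4G Hi-ChIP in mouse pancreatic cancer cells. The genes were Wnt7b, Lrp6, Lgr4, Rnf43, Znrf3, Ctnnb1, Axin2 and Tcf7l2. A loop was counted for a gene when 1 of its anchors lay within 2 kb of an annotated transcript start of that gene. This gave 339 distinct loops of 249200 over the 4 loop lists, and of 181129 loops that had a start of any gene within 2 kb of an anchor. The 339 loops left from 13 anchors, of 30542 anchors in all. Hi-ChIP ligates DNA that lies close together in the nucleus and then pulls down the fragments bound by 1 protein, so each loop is a contact seen in the pull-down of that protein.

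The samples came from cells grown out of the primary pancreatic tumor of a KPC mouse, an engineered model of pancreatic cancer, and from cells of a matched liver metastasis (liver mets). FOXA1, a forkhead transcription factor, and HNF4G, an orphan nuclear receptor, were each pulled down in both lines, with 2 replicates per group, and all samples carried the labels WT and Untreated. Each context was 1 line, so a difference between liver mets and tumor cannot be told apart from a difference between 2 lines. Each group had 1 loop list that covered both replicates. There was therefore no spread between replicates and no test between groups, and all intervals below are 95% intervals that cover counting error only. Loop lists hold no expression values, so the cell type was not checked against markers.

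In Wnt signaling a secreted Wnt ligand binds Frizzled receptors together with the co-receptor Lrp6, and the complex that marks β-catenin (Ctnnb1) for destruction is then held back. β-catenin enters the nucleus and acts on genes through TCF/LEF factors such as Tcf7l2. Axin2, a scaffold of the destruction complex, is a classical target gene and restrains the pathway. Rnf43 and Znrf3 are membrane ubiquitin ligases that remove Frizzled and Lrp6 from the cell surface, and Lgr4, a receptor for R-spondins, counters them.

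The lists held 197 loops at the 8 genes for FOXA1 in liver mets (exact Poisson interval 170 to 227), 166 for FOXA1 in tumor (142 to 193), 127 for HNF4G in liver mets (106 to 151) and 128 for HNF4G in tumor (107 to 152). The whole lists held 125623, 104136, 78098 and 76323 loops in the same order. Liver mets over tumor gave 1.19 for FOXA1 (exact interval 0.960 to 1.47) and 0.992 for HNF4G (0.770 to 1.28). The ratios of the whole lists were 1.21 and 1.02, close to those of the 8 genes together. FOXA1 exceeded HNF4G 1.30-fold in tumor (1.02 to 1.65) and 1.55-fold in liver mets (1.23 to 1.95), where the whole lists gave 1.36 and 1.61. As shares of each list, the same FOXA1 to HNF4G ratios were 0.951 and 0.964, on the other side of 1, with intervals that included 1.

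The loops were spread unevenly over the genes. Wnt7b had 83 distinct loops, Rnf43 77, Ctnnb1 56, Tcf7l2 46, Lrp6 30, Axin2 22, Znrf3 17 and Lgr4 8. The median over the 15439 genes with any loop was 16, and the median of the 8 genes was 38.0. Wnt7b exceeded 97.6% of those genes, Rnf43 97.1% and Ctnnb1 93.4%, whereas Lgr4 exceeded only 19.9%. Wnt7b, Ctnnb1 and Rnf43 have 2, 2 and 4 anchors near their starts and the other genes 1 each, which adds to their numbers. The ligand, 1 of the ligases, the pathway's effector and its nuclear partner thus carried most of the loops.

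**Figure D1:**
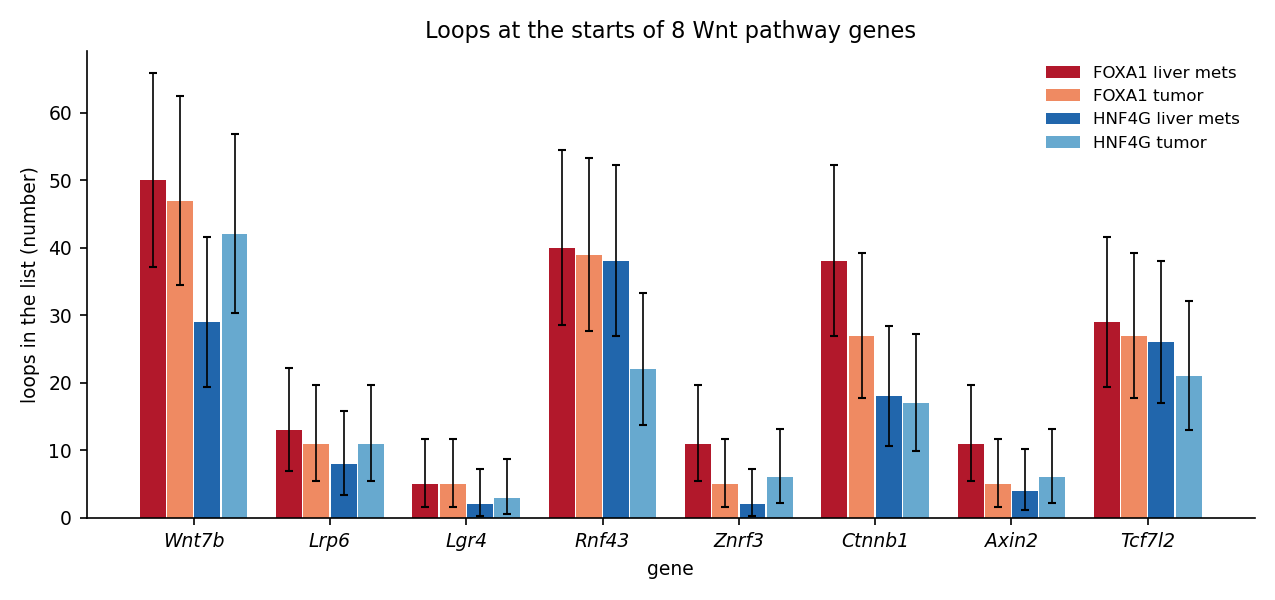
Bars give the number of loops at each gene in each of the 4 lists, with exact Poisson 95% intervals as error bars. Wnt7b had 29 to 50 loops per list and Lgr4 2 to 5, and the intervals of liver mets and tumor overlapped at every gene.

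Wnt7b encodes the secreted ligand of the group and lies on chromosome 15, on the minus strand between 85535437 and 85582473 (mm10). It had 50 loops for FOXA1 in liver mets and 47 in tumor, and 29 and 42 for HNF4G. The HNF4G liver mets number was the lowest of the 4, with a ratio to tumor of 0.690 (0.415 to 1.13), where all loops on chromosome 15 gave 1.01. Most of its loops left from an anchor 10855 bp wide that holds the gene's first start and also a start of AU022754. This anchor had 43, 32, 20 and 38 loops in the same order of lists. A second anchor in an intron, 1855 bp from the nearest start and just inside the 2 kb limit, had 8, 16, 10 and 5. For HNF4G the first anchor was thus lower in liver mets than in tumor and the second higher. The nearest anchor outside the limit in any of the 8 genes was 3848 bp from a start, at Lgr4, followed by 1 at 4387 bp from Ctnnb1.

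The loops of Wnt7b reached to both sides, with 41 upstream, 33 downstream and 9 to partners inside the gene. Of the 83 loops, 15 stood in all 4 lists. All of its loops with values of 9.79 or more ended downstream, toward Fbln1 and Atxn10. The value is the number deposited for each loop, read here as −log10 of an adjusted p with a ceiling of 20. Loops of long span carry runs of tied values in each list, so the same value recurs below. The partner 100 kb downstream, between genes, had values of 3.55 and 2.28 for FOXA1 in liver mets and tumor, and of 20 and 3.20 for HNF4G. Values below keep this order. The partner 232 kb downstream in an Atxn10 intron had 20, 1.68, 5.39 and 1.83, and the partner 268 kb downstream, between genes, had 9.79, 3.17, 3.42 and 1.85. In both of these the liver mets value of each factor was above its tumor value. The partner 292 kb downstream in Fbln1 had 1.68, 10.2 and 1.89 in the lists other than HNF4G tumor. Values are ranks of evidence within a list and not amounts, so they were not tested between lists. The windows below show 200 bases of the partners that reached the ceiling. Matches on either strand to the motifs TGTTTAC (forkhead), CAAAGTC (part of the HNF4 motif) and ATCAAAG (TCF/LEF) are in capitals. Each window was placed where its partner holds the most matches, so every window holds a match by construction. The Lrp6 partner in all 4 lists, 9.76 kb upstream, held no match and has no window. All windows are printed 5′ to 3′ on the plus strand of mm10.
Wnt7b partner 100 kb downstream, chr15:85476911-85477110: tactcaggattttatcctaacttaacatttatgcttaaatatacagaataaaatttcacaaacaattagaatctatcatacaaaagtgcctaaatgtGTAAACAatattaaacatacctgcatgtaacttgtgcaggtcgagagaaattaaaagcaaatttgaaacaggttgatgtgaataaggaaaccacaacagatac
Wnt7b partner 232 kb downstream in Atxn10, chr15:85347076-85347275: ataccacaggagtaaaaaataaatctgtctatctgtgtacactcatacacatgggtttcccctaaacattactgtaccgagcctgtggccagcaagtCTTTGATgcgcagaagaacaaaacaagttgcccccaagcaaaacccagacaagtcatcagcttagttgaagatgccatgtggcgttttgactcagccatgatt
The first window holds a forkhead match and the second a TCF/LEF match, both on the minus strand.

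Upstream of Wnt7b, 2 partners in all 4 lists lay in Lncppara, a long non-coding RNA gene, at 91.6 kb and 106 kb. The second of these had values of 0.394, 1.88, 1.34 and 5.01. The anchor at the microRNA genes Mirlet7b and Mirlet7c-2, 131 kb upstream, was joined to Wnt7b in FOXA1 liver mets at 1.87, in FOXA1 tumor at 3.74 and in HNF4G tumor at 4.17, and was not listed in HNF4G liver mets. The tumor lists of both factors, and neither liver mets list, held 3 loops of Wnt7b. Among them was 1 to Fbln1, which encodes an extracellular matrix protein, 349 kb downstream with values of 3.36 for FOXA1 and 1.93 for HNF4G. From the second anchor, at 340 kb, the same Fbln1 partner was listed in FOXA1 tumor at 1.81 and in HNF4G liver mets at 1.90. The contact with this partner was thus not confined to the tumor lists. Another loop in both tumor lists alone ended 448 kb downstream at the starts of Ribc2 and Smc1b, with 1.87 and 1.96. No Wnt7b loop stood in both liver mets lists alone. The longest loop of the gene ran 1344 kb into Parvb, in HNF4G tumor, at 1.99. Gramd4 was the gene whose contacts were most like those of Wnt7b, with 37 partners in common and a Jaccard index of 0.474 (shared partners as a fraction of all partners of either gene, over the 4 lists).

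Lrp6, the co-receptor, lies on the minus strand of chromosome 6 between 134446476 and 134566965. It had 13 loops for FOXA1 in liver mets and 11 in tumor, and 8 and 11 for HNF4G, which differed by less than their counting error. The HNF4G ratio of liver mets to tumor was 0.727 (0.254 to 1.99) and that of chromosome 6 was 1.10. Of 30 loops, 23 ran upstream and 22 stood in 1 list only. The single loop in all 4 lists ended 9.76 kb upstream with values from 0.0764 to 0.336. The lists other than FOXA1 tumor joined Lrp6 to the start of Crebl2 264 kb upstream at 1.57, 1.87 and 1.83. FOXA1 liver mets alone joined it to the start of Cdkn1b, which encodes a cell cycle inhibitor, 354 kb upstream at 1.69, and both FOXA1 lists joined it to the adjacent Lockd start at 361 kb (1.70 and 1.82). Both tumor lists alone held a loop 380 kb downstream into an intron of Etv6, an ETS family repressor, at 1.83 and 1.93. The loop of the highest evidence in FOXA1 liver mets, at 3.11, ended 331 kb upstream at Gpr19. Borcs5, the gene most alike, shared 19 partners (Jaccard index 0.500).

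Lgr4, the R-spondin receptor, lies on the plus strand of chromosome 2 between 109917647 and 110014257 and had the fewest loops, 5 for FOXA1 in liver mets and 5 in tumor, and 2 and 3 for HNF4G. With a limit of 5 kb it had 13 and 11 loops for FOXA1 and 6 and 8 for HNF4G, no fewer than Znrf3 or Axin2 in any list. At 2 kb its partners were few, and 6 of the 8 stood in more than 1 list. Of other promoter loops, 65.7% stood in 1 list only, but 8 loops are too few to set against that share. Inside the gene, 3 of the 6 lay 73.9, 88.1 and 94.4 kb from the start anchor. Their values were 0.0889 and 0.123, 0.0889 and 0.432, and 0.0894 and 0.855, which give little or almost no evidence for a loop. Between genes, 269 kb downstream, a partner was listed at 2.99 in FOXA1 liver mets, 1.74 in FOXA1 tumor and 1.85 in HNF4G tumor, and a neighbor at 274 kb was listed at 1.63 and 3.17 by FOXA1 in liver mets and tumor. The 2 HNF4G liver mets loops went to the start of Ccdc34, 99.8 kb downstream (1.22), and to a region 338 kb upstream (1.91). Ccdc34 was also the gene with the most similar contacts, with 6 shared partners (Jaccard index 0.462). Too few loops were present for any ratio to be read, as the HNF4G interval ran from 0.0557 to 5.82.

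Rnf43, which encodes 1 of the 2 membrane ligases, lies on the plus strand of chromosome 11 between 87662722 and 87735539. It had 40 loops for FOXA1 in liver mets and 39 in tumor, and 38 and 22 for HNF4G, so that the HNF4G tumor list stood below the other 3. The HNF4G ratio of liver mets to tumor was 1.73 (0.996 to 3.07), which just includes 1, and it was 1.69 on shares. With only the anchor that holds a start of Rnf43, it was 1.14, from 8 and 7 loops. All loops of chromosome 11 gave 0.934 in the same comparison. The FOXA1 ratio was 1.03 (0.643 to 1.64), and the ratio of the FOXA1 to the HNF4G ratio was 0.594 with a Woolf interval of 0.299 to 1.18. Each of the 4 anchors of the gene had more HNF4G loops in liver mets than in tumor, 8 against 7, 12 against 5, 7 against 6, and 16 against 9 from the first to the last along the gene. The difference thus lay mostly in the other 3 anchors, which hold no Rnf43 start and lie 724 to 1678 bp from one. Each of these also has a start of another gene within 2 kb, of Gm25968, of 1110028F11Rik and of Supt4a, a transcription elongation factor gene, and their loops cannot be assigned to 1 gene.

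Of the 77 Rnf43 loops, 18 stayed within the gene, among them all 11 that stood in all 4 lists. Of the 18, 6 joined its own anchors to each other, and the others ended in 3 intronic regions without a start. The first of these regions, at 87678113 to 87684252, was joined to all 4 anchors in all 4 lists. From the anchor at the first start its values were 3.82 and 3.57 for FOXA1 in liver mets and tumor, and 0.145 and 1.56 for HNF4G. The second region, at 87688649 to 87691403, was joined to 3 anchors in all 4 lists and had its highest value of 4.56 in FOXA1 liver mets, from the anchor of the 1110028F11Rik start. The window shown is from this second region and was placed on its matches. Over its 2755 bp the region holds 1 TCF/LEF and 1 forkhead match, both within these 200 bases.
Rnf43 intronic partner, chr11:87689497-87689696: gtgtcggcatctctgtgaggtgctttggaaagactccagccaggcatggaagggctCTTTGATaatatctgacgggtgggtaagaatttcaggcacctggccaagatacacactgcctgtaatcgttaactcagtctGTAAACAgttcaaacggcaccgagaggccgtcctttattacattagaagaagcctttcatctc
The liver mets lists of both factors, and neither tumor list, held 5 Rnf43 loops, including 1 to the start of the phosphatase gene Ppm1e 378 kb upstream (1.74 and 1.93) and 1 to an intron of Tex14 281 kb upstream (1.62 and 1.89). No Rnf43 loop stood in both tumor lists alone. FOXA1 tumor joined 2 of the anchors to the starts of Vmp1 and of the microRNA Mir21a, 1075 and 1109 kb upstream, at 1.91 each. Cuedc1 had the contacts most like those of Rnf43, with 18 shared partners and a Jaccard index of 0.333.

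Znrf3, the related ligase, lies on the minus strand of chromosome 11 between 5276324 and 5444847, with 11 loops for FOXA1 in liver mets and 5 in tumor, and 2 and 6 for HNF4G. FOXA1 had more loops in liver mets and HNF4G fewer, at a ratio of 2.20 for FOXA1 (0.705 to 8.08) and 0.333 for HNF4G (0.0329 to 1.86), but the ratio of these ratios, 6.60, had an interval of 0.970 to 44.9. In liver mets FOXA1 exceeded HNF4G 5.50-fold (1.20 to 51.1), and 3.42-fold on shares (0.746 to 31.7). No Znrf3 loop stood in all 4 lists. Recurrent partners lay in Kremen1, the neighboring gene, whose product binds Dickkopf proteins and acts with them on Lrp6. A partner 198 kb downstream in Kremen1 was listed by FOXA1 in liver mets at 1.47 and by HNF4G in both lines at 1.78 and 1.75, and another at 202 kb had 1.47 and 1.64 in the FOXA1 lists. The Kremen1 start itself, 183 kb away, was joined in HNF4G tumor at 1.73. On the other side, Ccdc117 was joined in 3 lists at 98.7 kb. Xbp1, a transcription factor gene of the unfolded protein response, was listed in both FOXA1 lists at 78.2 kb. Its values of 0.0889 and 0.123 give almost no evidence for a loop. The loop of the highest value, 3.45 in FOXA1 liver mets, ended in an intron of Znrf3 139 kb from the start. Dbnl had the most similar contacts (8 shared partners, Jaccard index 0.308).

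**Figure D2:**
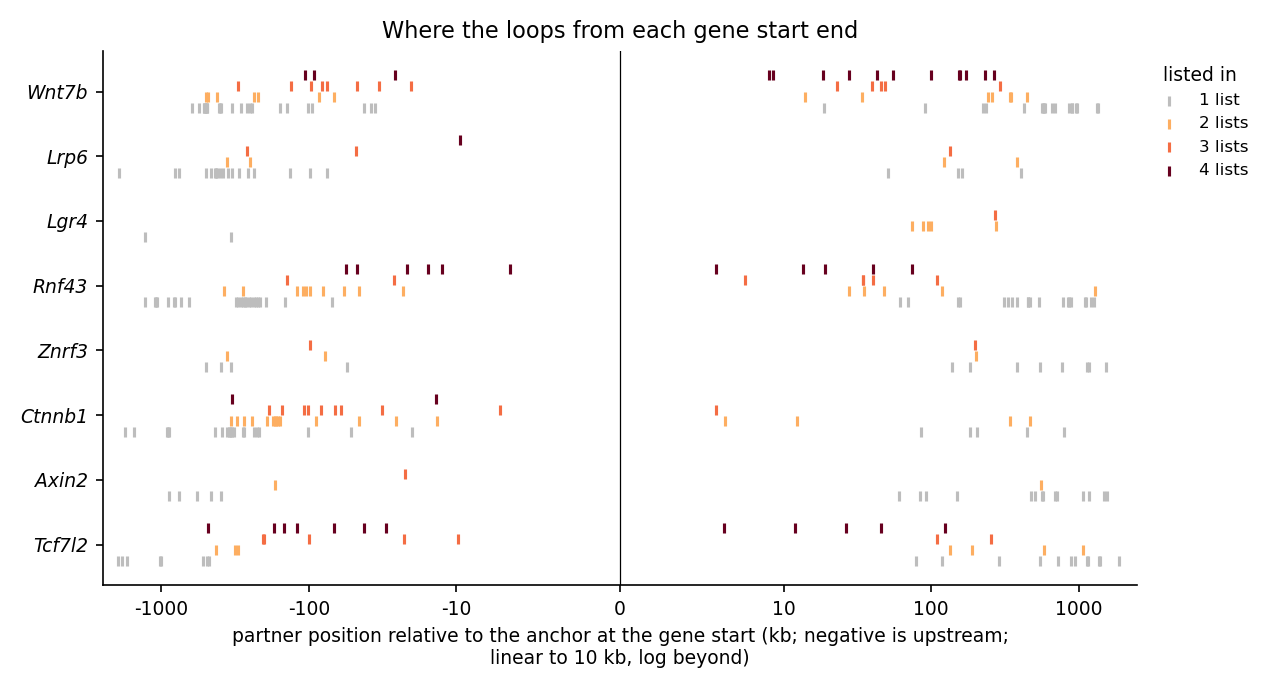
Each tick is the partner of 1 loop at its distance in kb from the anchor near the gene start, with negative values upstream on the gene's strand and a scale that is linear to 10 kb and logarithmic beyond. Color and height within a row give the number of lists, from 1 (grey) to 4 (dark red), and the loops in all 4 lists sit at Wnt7b, Rnf43 and Tcf7l2 within 484 kb of the anchor, with 2 more at Ctnnb1 and 1 at Lrp6.

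Ctnnb1, the gene of β-catenin, lies on the plus strand of chromosome 9 between 120929216 and 120960507. It had 38 loops for FOXA1 in liver mets and 27 in tumor, and 18 and 17 for HNF4G. FOXA1 exceeded HNF4G 2.11-fold in liver mets (1.18 to 3.93) and 1.59-fold in tumor (0.835 to 3.11), and on shares the first ratio was 1.31 (0.731 to 2.44). Liver mets over tumor gave 1.41 for FOXA1 (0.837 to 2.40) and 1.06 for HNF4G (0.515 to 2.19). Its loops pointed to 1 side, as 46 of 56 ended upstream, 3 within the gene and 7 downstream. Of the 2 anchors, 1 covers the main cluster of starts and is shared with 4930593C16Rik, and the other lies 1314 bp before the first start. The anchor at the cluster had 22 and 11 loops for FOXA1 in liver mets and tumor, and 12 and 11 for HNF4G. The other had 17 and 16 for FOXA1, and 7 and 6 for HNF4G. In tumor the excess of FOXA1 over HNF4G thus lay at the anchor before the first start. The higher FOXA1 number in liver mets lay mostly at the anchor of the cluster.

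Many upstream partners were joined to both anchors. The partner 331 kb from the anchor at the cluster of starts, the only distant one in all 4 lists, had values of 1.68 and 3.37 for FOXA1 in liver mets and tumor and of 3.60 and 1.90 for HNF4G. A neighboring partner had 7.58 from the other anchor, at 333 kb, in FOXA1 liver mets only, and from the first anchor, at 339 kb, it stood in both liver mets lists at 1.69 and 1.94. A wide partner 152 kb from 1 anchor and 158 kb from the other was listed at 2.13, 4.12 and 2.77 from the first in the 3 lists other than HNF4G liver mets, and at 6.64 from the second in HNF4G tumor. The second of these loops was also in FOXA1 tumor, at 1.47, and in neither liver mets list. The reverse set, in both liver mets lists alone, had 5 Ctnnb1 loops, such as 1 to Trak1, a mitochondrial transport adaptor gene, 469 kb downstream at 1.79 and 1.98. The nearest partner in all 4 lists, 13.7 kb upstream, had values of 0.126, 0.105, 0.360 and 1.37. The 5 longest loops, of 894 to 1752 kb, stood in FOXA1 liver mets alone at 1.87. Gm39460, an upstream gene model, shared 20 partners with Ctnnb1 (Jaccard index 0.513).

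Axin2, the feedback scaffold, lies on the plus strand of chromosome 11 between 108920349 and 108950783. It had 11 loops for FOXA1 in liver mets and 5 in tumor, and 4 and 6 for HNF4G, and the FOXA1 ratio of 2.20 had an interval of 0.705 to 8.08. Of 22 loops, 19 stood in 1 list only, none in all 4, and the median span was 561 kb, the longest of the 8 genes. The loop of the highest value ended 169 kb upstream in Cep112, a centrosomal gene, with 4.75 in HNF4G tumor and 2.46 in FOXA1 liver mets. Its partner lies within 2 kb of a transcript start inside Cep112, and the nearest protein-coding gene start to it is that of Axin2. FOXA1 liver mets had a further loop at 3.46 to a Cep112 intron 460 kb upstream. The nearest partner, 22.1 kb upstream, was in 3 lists at 0.0881, 0.146 and 0.951. Both HNF4G lists, and no FOXA1 list, joined Axin2 to the starts of Arsg and Slc16a6 554 kb downstream at 1.99 each. The gene with the most similar contacts was 1700096J18Rik, with 13 shared partners (Jaccard index 0.342). The anchor at the Axin2 start held 2 TCF/LEF matches, 1 of them in an exon 81 bases after the first start and 1 that lay 101 bases before another start. Both are shown with the flanking bases, beside the match in the Lrp6 anchor, 387 bases before a start, and a match 1518 bases before the first start of Ctnnb1. The other matches lay after their nearest start and are not shown. They were 828 bases from a start at Ctnnb1, 2119 at Tcf7l2, and 2262 and 1838 at Rnf43.
Axin2 first match, chr11:108920416-108920444: agccggctgcgCTTTGATaaggtcctggc
Axin2 second match, chr11:108921221-108921249: cggccggcgcgCTTTGATgtgcggggcgg
Lrp6 match, chr6:134567338-134567366: gacgtaggaaaATCAAAGtgccattgcgg
Ctnnb1 match, chr9:120927684-120927712: gaagaaaaaggCTTTGATaaaaacaaaag
The capitals mark the match, which reads CTTTGAT where it lies on the minus strand.

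Tcf7l2, the TCF factor, lies on the plus strand of chromosome 19 between 55741820 and 55933654 and had 29 loops for FOXA1 in liver mets and 27 in tumor, and 26 and 21 for HNF4G. These numbers were closer to each other than at any other gene with more than 30 loops, with ratios of 1.07 to 1.29 in the 4 comparisons. All of its loops left from 1 anchor, and 12 of 46 stood in all 4 lists. Of its partners, 7 lay in introns of Vti1a, a vesicle transport gene upstream, and 10 within Tcf7l2 itself. At 3 partners the value was 2.93 or more in every list. The Vti1a intron 148 kb upstream was at 20 in both FOXA1 lists, and at 2.93 and 4.56 for HNF4G in liver mets and tumor. The intron of Acsl5, a fatty acid activating enzyme gene, 484 kb upstream had 3.50, 5.94, 6.37 and 3.84, and the intron of Tcf7l2 125 kb downstream of the start had 11.1, 5.29, 4.37 and 12.7. Windows of these 3 partners follow because their lowest value was the highest among the 41 loops that stood in all 4 lists.
Tcf7l2 partner in Vti1a, chr19:55593340-55593539: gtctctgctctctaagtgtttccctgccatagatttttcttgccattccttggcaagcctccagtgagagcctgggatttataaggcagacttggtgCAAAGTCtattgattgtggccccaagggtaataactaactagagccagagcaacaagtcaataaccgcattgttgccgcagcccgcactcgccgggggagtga
Tcf7l2 partner in Acsl5, chr19:55257169-55257368: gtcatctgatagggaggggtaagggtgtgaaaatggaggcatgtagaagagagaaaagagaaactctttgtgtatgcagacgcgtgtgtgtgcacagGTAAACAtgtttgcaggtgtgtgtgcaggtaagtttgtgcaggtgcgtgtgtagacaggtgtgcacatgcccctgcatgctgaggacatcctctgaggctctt
Tcf7l2 intronic partner, chr19:55868415-55868614: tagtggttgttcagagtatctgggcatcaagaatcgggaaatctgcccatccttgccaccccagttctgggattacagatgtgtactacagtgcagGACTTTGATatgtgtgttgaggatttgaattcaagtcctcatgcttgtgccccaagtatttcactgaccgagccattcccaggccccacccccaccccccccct
The windows hold a match to the HNF4 part, a forkhead match in a masked repeat, and an overlapping pair of an HNF4 part and a TCF/LEF match, in that order. The whole partners hold more matches than the windows. The Vti1a partner had 2 forkhead and 3 HNF4 part matches over 5619 bp. The Acsl5 partner had 2 forkhead matches over 3232 bp, and the Tcf7l2 partner 1 HNF4 part and 2 TCF/LEF matches over 5492 bp.

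Further partners in Vti1a introns, 302 and 318 kb upstream of Tcf7l2, were joined in both liver mets lists and neither tumor list, with values of 5.07 and 1.92 and of 1.68 and 3.59 for FOXA1 and HNF4G. Another liver mets loop of this kind was listed within the gene, 134 kb from the start, and no loop stood in both tumor lists alone. Loops to the Vti1a start at 426 kb were found in the FOXA1 lists, at 3.40 in liver mets and 1.87 in tumor. The longest loop of all 339, at 1954 kb in HNF4G tumor, ended in Rbm20 at 1.99. The gene with the most similar contacts was 4930552P12Rik, between Vti1a and Tcf7l2, with 27 shared partners (Jaccard index 0.482).

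**Figure D3:**
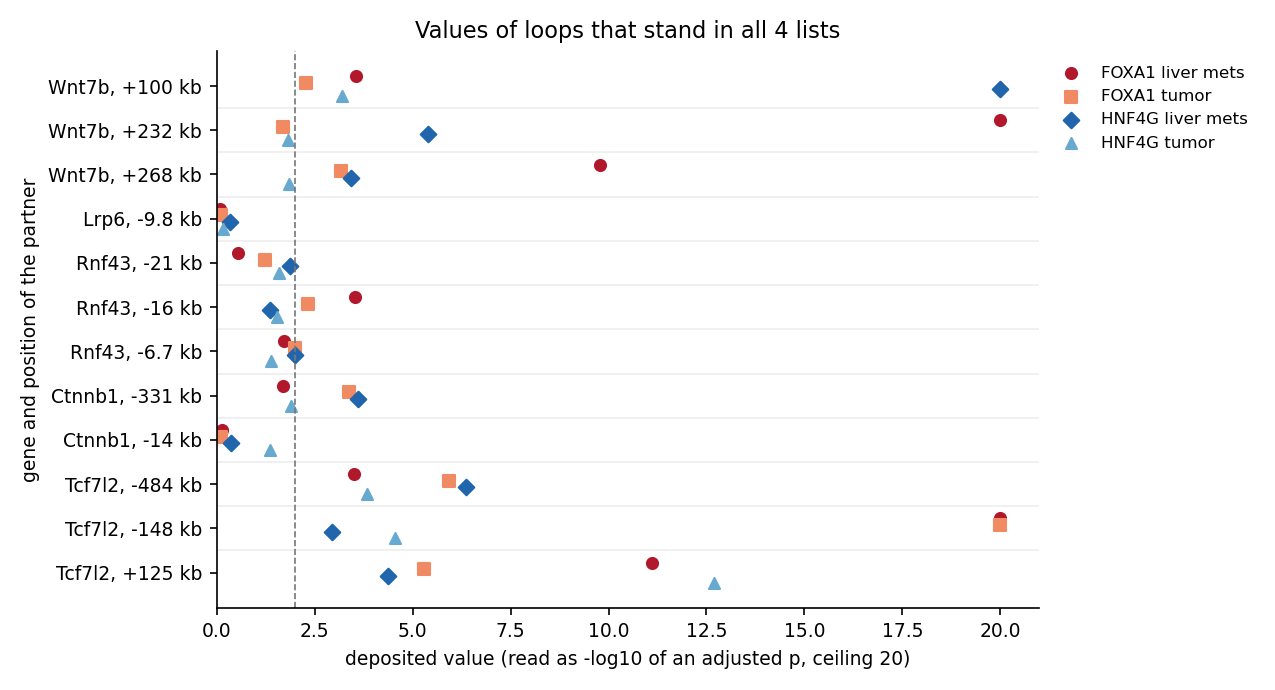
Points give the deposited value, read as −log10 of an adjusted p with a ceiling of 20, in each of the 4 lists for up to 3 partners per gene that stood in all lists. The dashed line marks a value of 2. The 3 Tcf7l2 partners were at 2.93 or more in every list, whereas the Lrp6 partner was at 0.336 or less.

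Set against other loops with a promoter anchor, loops at the 8 genes stood more often in all 4 lists, at 41 of 339 or 12.1% (Wilson interval 9.04 to 16.0) beside 5.53% of 180790. The difference was 6.57 percentage points (Newcombe interval 3.51 to 10.5), and other loops weighted to the same spans gave 5.80%. Loops in 1 list only made up 54.9% (49.5 to 60.1) beside 65.7%. These intervals treat loops as independent although loops of a gene share anchors. The difference rested on 3 genes, as Wnt7b, Tcf7l2 and Rnf43 held 15, 12 and 11 of the 41 loops. Among 11208 genes with at least 10 loops, the median share in all 4 lists was 2.84%, and Tcf7l2 at 26.1% exceeded 99.3% of them, Wnt7b at 18.1% exceeded 96.4% and Rnf43 at 14.3% exceeded 92.6%. Ctnnb1 at 3.57% and Lrp6 at 3.33% were near the median, and Axin2 and Znrf3 were among the 47.1% of genes without such a loop.

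**Figure D4:**
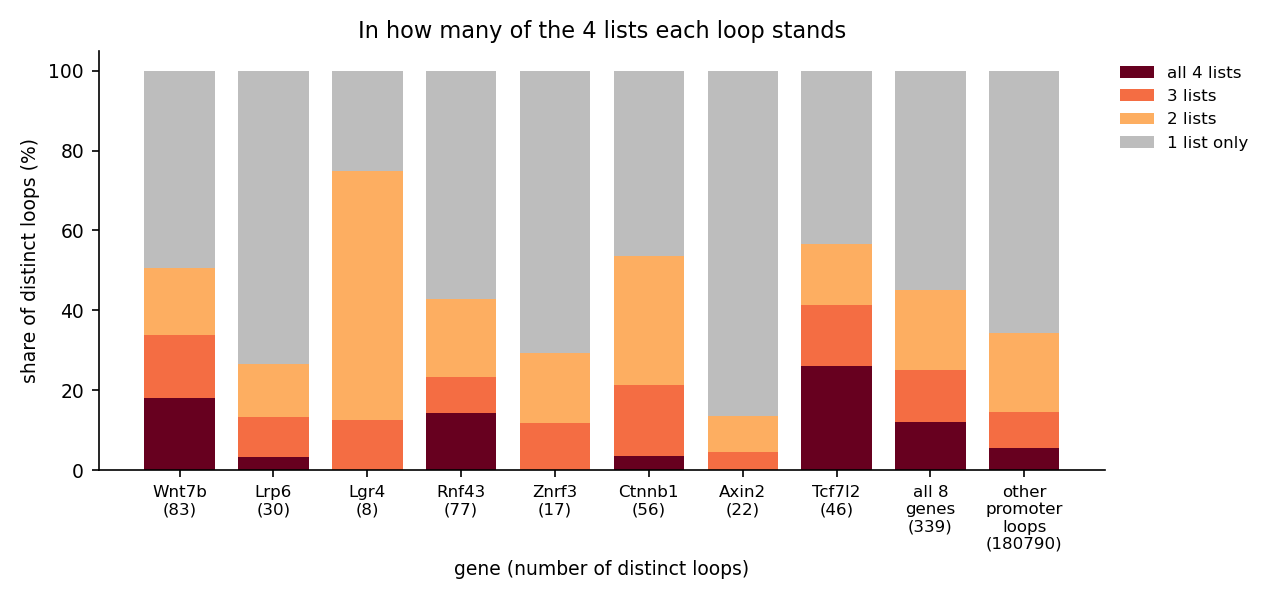
Stacked bars give the share of distinct loops that stood in all 4, 3, 2 or 1 of the lists for each gene, for all 8 genes and for other loops with a promoter anchor, with the number of loops in parentheses. The dark red part was 26.1% at Tcf7l2, 12.1% over the 8 genes and 5.53% in other promoter loops.

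Membership varied with the span. Under 20 kb, 13 of 23 loops at the genes stood in all 4 lists beside 33.3% of other promoter loops. Between 100 and 200 kb the share was 9 of 49, or 18.4% (9.98 to 31.4), beside 3.67%. Of 84 loops of 500 kb or more, 80 stood in 1 list only, none in all 4, and 3 had a value of 2 or more, all in FOXA1 liver mets. Of other promoter loops, 0.323% stood in all 4 lists at 500 to 1000 kb and 0.0172% beyond, so the absence is not particular to the genes. The share of other long loops in 1 list only was not counted. The loops in 1 list were 67 for FOXA1 in liver mets and 51 in tumor, and 33 and 35 for HNF4G. Both FOXA1 lists alone shared 23 loops, or 6.78% of the 339, beside 5.49% of other promoter loops. Both HNF4G lists alone shared 3, or 0.885% beside 1.95%. The FOXA1 pair thus shared more than the HNF4G pair among other promoter loops too. Both liver mets lists alone shared 13, all at Ctnnb1, Rnf43 and Tcf7l2, and both tumor lists alone shared 8, at Ctnnb1, Wnt7b, Znrf3 and Lrp6. As shares of the 339 loops, these were 3.83% and 2.36%, beside 3.45% and 2.61% of other promoter loops.

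Median spans were 153 kb for FOXA1 in liver mets and 156 kb in tumor, and 110 kb and 116 kb for HNF4G, beside 174, 150, 123 and 142 kb for other promoter loops. The HNF4G medians were thus below those of FOXA1 in both lines, as they were elsewhere. In tumor, however, the quartiles were alike, at 46.9 and 338 kb for FOXA1 and 45.0 and 341 kb for HNF4G. With the start inside the anchor the tumor medians were 161 and 158 kb, and with the gene start alone 163 and 156 kb. Both anchors were promoter anchors in 34.0%, 32.5%, 27.6% and 32.8% of the loops, beside 37.6%, 38.8%, 40.0% and 42.0%. The Wilson interval excluded the share of other loops in both HNF4G lists (20.5 to 35.9 and 25.3 to 41.3), in tumor only narrowly. The intervals treat loops as independent although loops of a gene share anchors, so they may be too narrow. Of the 339 loops, 188 passed over the start of at least 1 other protein-coding gene, and of the 209 whose partner held no start, the gene itself was the nearest protein-coding gene for 62. For Tcf7l2 this was so in 21 of 36, and for Znrf3 and Lgr4 in none of 8 and 7. The same was not counted over other promoter loops, so these numbers describe the 8 genes only.

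A ratio of 1.5 was used to place the genes among all genes with at least 10 loops in the larger of the 2 lists. For FOXA1, liver mets exceeded tumor at this level in 25.4% of 6601 genes and in 2 of 7 genes of the group, Axin2 and Znrf3, and tumor exceeded liver mets in 5.74% and in none of the 7. For HNF4G, liver mets exceeded tumor in 12.1% of 4529 genes and in 1 of 5, Rnf43, and tumor exceeded liver mets in 18.0% and in none of the 5. FOXA1 exceeded HNF4G in tumor in 35.3% of 5547 genes and in 2 of 5, Ctnnb1 and Rnf43, with 6.38% and none in the other direction. In liver mets it did so in 57.3% of 6215 genes and in 5 of 7, Ctnnb1, Axin2, Wnt7b, Znrf3 and Lrp6, with 1.48% and none in the other direction. With 5 or 7 genes these counts do not stand apart from the background.

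These percentages moved with the scaling. On shares of each list they became 12.4% and 12.2% for FOXA1 between the lines, 11.2% and 18.3% for HNF4G, 14.1% and 18.5% for FOXA1 over HNF4G in tumor, and 15.4% and 12.5% in liver mets. On that scale Ctnnb1 and Rnf43 no longer passed 1.5-fold in tumor, and in liver mets Axin2 and Znrf3 passed with more FOXA1 loops and Rnf43 with more HNF4G loops. Axin2, Znrf3 and Rnf43 passed between the lines on both scales. With the start inside the anchor, however, Rnf43 no longer passed for HNF4G, at 1.14, and Wnt7b passed in the other direction, at 0.526 (20 loops in liver mets and 38 in tumor). For FOXA1, Ctnnb1 passed at this setting, at 2.00 (22 loops in liver mets and 11 in tumor). The median ratios of the group were 1.18, 1.06, 1.29 and 1.72 in the 4 comparisons, beside 1.20, 0.941, 1.28 and 1.58 over all genes.

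**Figure D5:**
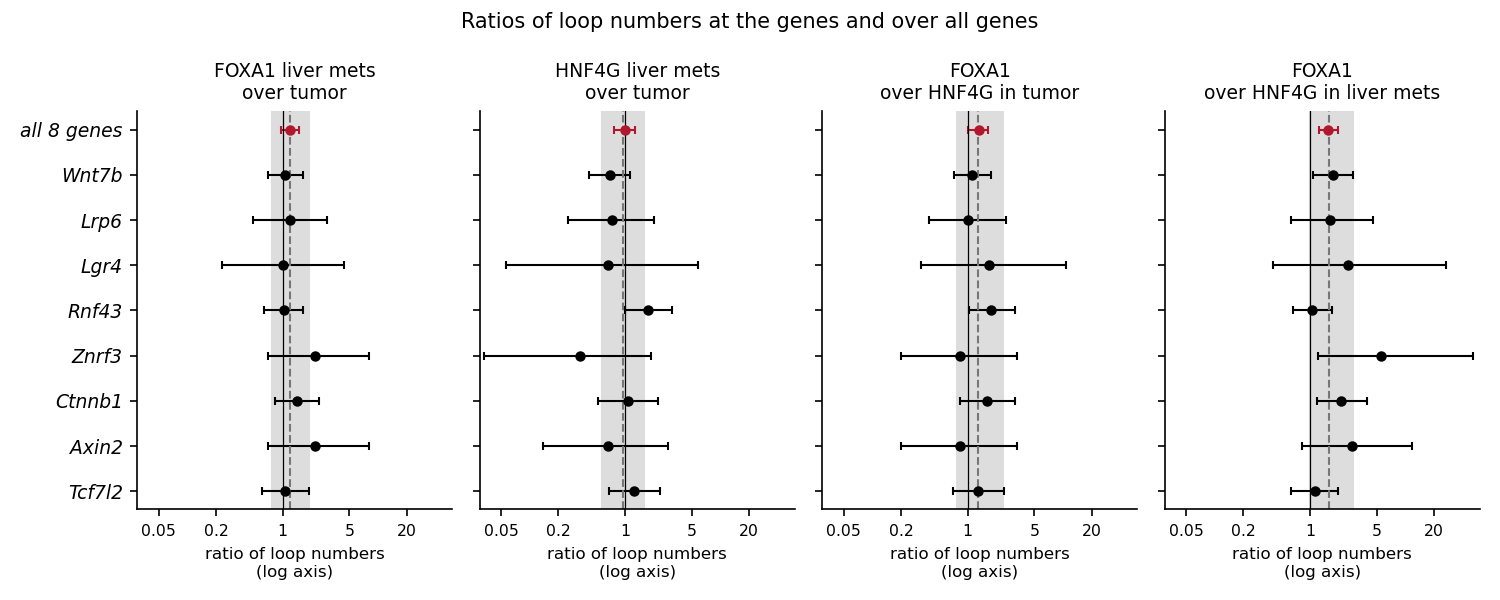
Points give the ratio of loop numbers on a log axis for all 8 genes (red) and each gene (black) with exact 95% intervals, the grey band the 10th to 90th percentile of all genes with at least 10 loops, and the dashed line their median. All liver mets to tumor intervals include 1. Outside the bands lie Axin2 and Znrf3 for FOXA1, both at 2.20, Rnf43 for HNF4G at 1.73, and Znrf3 for FOXA1 over HNF4G in liver mets at 5.50. Znrf3 for HNF4G, at 0.333, had only 2 and 6 loops, fewer than the genes of the band, and cannot be placed against it.

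Of 75 other genes of the pathway, 45 had loops by the same rule. For FOXA1, 29 of the 45 had more loops in liver mets than in tumor, 13 fewer and 3 as many, beside 57.8%, 29.0% and 13.3% of 15439 genes. For HNF4G, 6 had more in liver mets, 32 fewer and 7 as many, beside 41.2%, 42.1% and 16.7%. On shares of each list the first split turned, to 21 more and 23 fewer beside 46.6% and 52.6%, and the second became 6 and 39 beside 41.1% and 56.1%. Neighboring genes can share anchors, so these counts are not independent. All 11 ligand genes with loops had fewer HNF4G loops in liver mets, as did Wnt7b with 29 against 42. Wnt11 had 4 in liver mets and 22 in tumor, Wnt6 had 3 and 18, and Wnt8b had 1 and 11. For FOXA1, 8 of the same 11 ligands had more loops in liver mets than in tumor, and 7 on shares. Of 12 receptor genes, 9 had fewer HNF4G loops in liver mets and none had more, such as the co-receptor Lrp5 with 14 and 20. Among 6 genes of secretion and extracellular inhibitors, 5 had fewer, including Notum, a Wnt-inactivating esterase, with 18 and 38. Cytoplasmic genes did otherwise, with 5 of 9 higher in HNF4G liver mets on both scales, such as Axin1 with 17 and 14. In the nucleus 1 of 7 was higher, the target gene Myc with 25 and 21, and Ccnd1 had 20 and 24. No list and no single gene of these was tested.

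Sequence at the anchors was read from the mm10 genome. Of the 13 anchors at the genes, 4 held TGTTTAC, 6 held CAAAGTC and 7 held ATCAAAG, or 30.8%, 46.2% and 53.8%, beside 36.6%, 34.3% and 30.6% of all anchors. Anchors at the genes were wider, at a median of 3631 bp against 2335 bp. Per 10 kb, TGTTTAC numbered 0.984 at the 13 anchors, 1.79 in all anchors and 1.51 in all promoter anchors, and CAAAGTC 1.18, 1.65 and 1.58. ATCAAAG numbered 1.57, 1.42 and 1.22. Per length, CAAAGTC was thus below its number in all anchors, although its share of anchors was higher. The 165 partners without a start held the motifs in 39.4%, 34.5% and 35.2%, close to 39.3%, 33.7% and 32.5% of all anchors without a start. RefSeq promoters of 300 bases (GRCm38.p6) were matched for 5 of the 8 genes, and none of the 8 promoters of Axin2, Ctnnb1, Lgr4, Rnf43 and Tcf7l2 held any of the motifs, which stood in 3.65%, 4.44% and 3.73% of 32851 promoters. A match is a description of the letters and does not show binding.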

How the data were processed

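FOXA1 and HNF4G Hi-ChIP was measured in 8 samples, 2 in each of 4 groups. The authors mapped read pairs to mm10 and filtered them with HiC-Pro 3.1.0 (DpnII fragments, duplicates removed), and loops were called with hichipper. Each group was deposited as 1 loop list, and how replicates were joined is not given in the sources used here. The value deposited for each loop had no name and was read as −log10 of an adjusted p, with a ceiling of 20. The display score deposited beside it is 10 times the whole part of that value plus 1 and was not used further. Paired reads per loop and sequencing depth are unknown.

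Anchors were assigned to genes with GENCODE M21 transcript starts. Loops of different lists were matched where each anchor pair shared 1 bp or more, and spans run between anchor midpoints. Loop numbers have exact Poisson intervals, their ratios exact Clopper-Pearson intervals, ratios of ratios Woolf intervals, shares Wilson intervals and differences of shares Newcombe intervals, all at 95% and for counting error only. Loops that share anchors are not independent. Genes entered the 1.5-fold comparison with at least 10 loops in the larger list. The scripts were tested on simulated lists and used Python 3.11.15, pandas 2.3.3, scipy 1.17.1 and pysam 0.24.0.

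The genes, pathway lists and alternatives were chosen with earlier results of these data known. For each gene the rule named up to 3 partners in all 4 lists with the highest lowest value, the longest loops, and up to 2 partners each in both liver mets or both tumor lists alone. Other partners were named after their values were seen.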

Additional observations from a re-analysis of the deposited data

How the results depend on the processing

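No paired analysis was possible because each group had 1 list that covered both replicates, and for the same reason no replicate could be left out. Liver mets over tumor at the 8 genes, near 1 in the main analysis, crossed 1 for FOXA1 on shares (0.984) and for HNF4G at 5 kb (1.07). Dividing by list size turned FOXA1 over HNF4G to 0.951 in tumor and 0.964 in liver mets. A value of 2 or more left 38 and 26 loops for FOXA1 in liver mets and tumor, and 18 and 23 for HNF4G, with 7.58% in all 4 lists and 63.6% in 1, and FOXA1 over HNF4G in liver mets at 2.11. A start inside the anchor (0 kb) left 106 loops in FOXA1 tumor and 82 in HNF4G liver mets, and the gene start alone 77 in HNF4G liver mets. The share in all 4 lists was 8.86% at spans of 20 kb or more and 16.7% with anchors widened by 5 kb. Other promoter loops gave 2.60% at a value of 2 or more and 3.74% at 20 kb or more, below the genes in both.

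The share of loops with promoters at both ends was 24.0%, 19.8% and 18.3% at 0 kb in the first 3 lists, 47.1%, 42.7%, 36.2% and 48.0% at 5 kb in all 4, 25.2% and 18.2% with the gene start alone in FOXA1 tumor and HNF4G liver mets, and 15.8%, 11.5% and 11.1% at a value of 2 or more in the first 3. Wider limits make more anchors count as promoters by construction.

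Of all genes, 167, 53, 86 and 234 passed 1.5-fold in the 4 comparisons at a value of 2 or more, where fewer genes had enough loops, and 1733 did for FOXA1 over HNF4G in liver mets on shares. Of the 8 genes, only Wnt7b had the 10 loops needed at a value of 2 or more. It had 12 and 9 for FOXA1 in liver mets and tumor, and 9 and 11 for HNF4G, and did not pass. The others could not pass at this setting. For HNF4G, 2 passed between the lines at 5 kb and at 20 kb or more, but they were not the same genes. At 5 kb they were Rnf43 at 1.73 and Tcf7l2 at 1.54, both higher in liver mets. At 20 kb or more they were Rnf43, higher at 1.94, and Wnt7b, lower at 0.641. At 0 kb and with the gene start alone 1 still passed, but it was Wnt7b, lower at 0.526, in place of Rnf43. For FOXA1 over HNF4G in tumor, 0 passed at 0 kb, 1 with the gene start alone and 0 on shares, and in liver mets 3 passed on shares. The cause was not tested.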
